A study of Arabidopsis thaliana with 8 samples.

Results

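Described here are 13 genes that gave no signal above background in wild-type Arabidopsis thaliana seedlings and a clear signal in seedlings of the tfl2-1 mutant. They were chosen by level in the authors' deposited table of log2 values: a probe was taken when its mean was 4 or less in wild type (WT), 5 or less in as1-1 and 8 or more in tfl2-1. Of the 43603 probes, 12925 met the first and second conditions and 23 met all of them. Of these, 8 probes of 6 genes were set aside by name (the floral MADS-box genes SEP1, SEP2, AG and AP3, the MADS-box gene AGL17 and the cytokinin oxidase gene CKX3), which left 15 probes. The WT, as1-1 and tfl2-1 arrays chose the members, so their levels in these genotypes are a description and carry no test. The double mutant arrays played no part in the choice.

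The study profiled whole 12-day-old Col-0 seedlings of 4 genotypes, with 2 one-colour arrays each: WT, the single mutants as1-1 and tfl2-1, and the double mutant that carries both alleles (as1-1 tfl2-1). Growth was the same for all, on MS medium at 22 °C in days of 16 h light, and the labels name no treatment. The labels call the arrays replicates but name no separate cultures, so every p-value measures the spread between these samples only, which can be technical. By the barcodes in the file headers, WT and as1-1 shared 1 slide, and tfl2-1 and the double mutant shared the other.

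TFL2, also called LHP1, encodes a chromodomain protein that binds the histone methyl mark set by the Polycomb repressive complexes and works with them, which keep developmental genes off in tissues where they do not belong. Plants without it are small and flower early, and release of floral genes in leaves is the textbook effect of its loss. AS1 encodes a MYB protein that, together with AS2, silences class I KNOX genes in leaves, in part by recruiting Polycomb proteins.

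TFL2 mRNA (AT5G17690) was at 10.18 and 10.07 in WT, at a mean of 10.05 in as1-1, at 9.02 and 9.06 in tfl2-1, and 9.38 and 9.41 in the double mutant. Levels here and below are log2 signals with each array scaled to a common 75th percentile. It was lower on the 4 arrays of the tfl2-1 allele than on the other 4. AS1 mRNA (AT2G37630) was at 11.30 and 11.24 in WT, 10.77 and 10.78 in as1-1, 10.98 and 10.93 in tfl2-1, and 11.22 and 11.36 in the double mutant, whose arrays overlapped those of WT. Neither the lesions nor the probe positions are in the labels, so these levels do not check the genotypes. Per array, 29244 to 31612 probes were well above background and no spot was saturated.

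The members were a small tail of the dark probes. Of the 12925 probes low in WT and as1-1, 265 had a tfl2-1 mean of 5 or more in the authors' deposited table, 92 of 6 or more, 46 of 7 or more and 23 of 8 or more, and the median was 2.15. On both tfl2-1 arrays, 273 of them (2.11%) were well above background. The comparison of WT with tfl2-1 crosses the slides, so slide and genotype cannot be told apart.

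**Figure D1:**
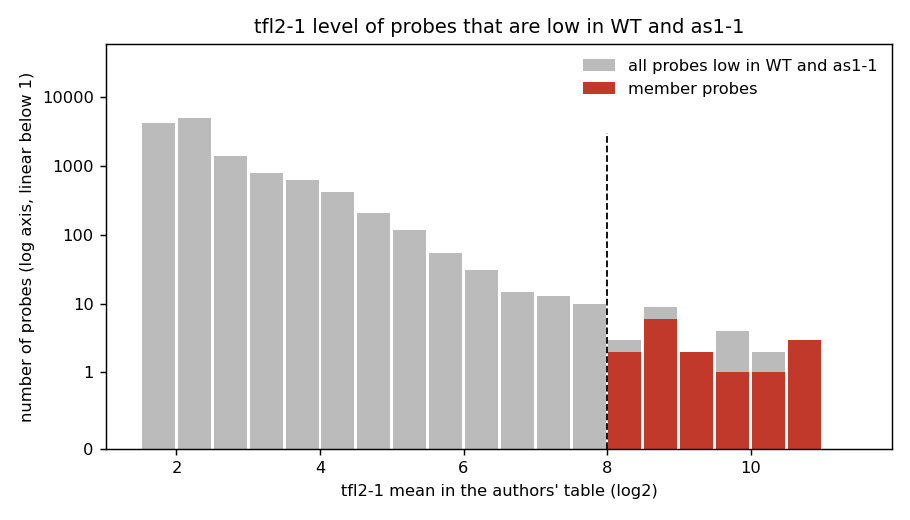
Histogram of the tfl2-1 mean (x axis, log2, authors' deposited table, bins of 0.5) of the 12925 probes low in WT and as1-1 (y axis, number of probes, log axis that is linear below 1); grey bars are all such probes, red bars the 15 member probes, and the dashed line is the threshold of 8. Most probes lie near the median of 2.15, and 23 lie at or above the line.

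All 15 member probes were below background on both WT arrays by the scanner's own flag. The rule had already chosen them for a low mean on these arrays, so the flag is no separate check of the label. In as1-1, 14 were below background on both arrays, and that of ORP4B was above it on 1. All 15 were well above background on both tfl2-1 arrays and on both double mutant arrays. Member levels ran from 8.05 to 10.92 in tfl2-1 and from 7.75 to 10.96 in the double mutant, against at most 4.04 in WT and 3.94 in as1-1. Since WT had no measured level, a fold against it is a lower bound, taken against the lowest signal well above background on each WT array. By these bounds the members were at least 15.3-fold to at least 103-fold higher in tfl2-1 than in WT, and at least 12.2-fold to at least 111-fold higher in the double mutant. Bounds of different probes do not rank the genes.

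**Figure D2:**
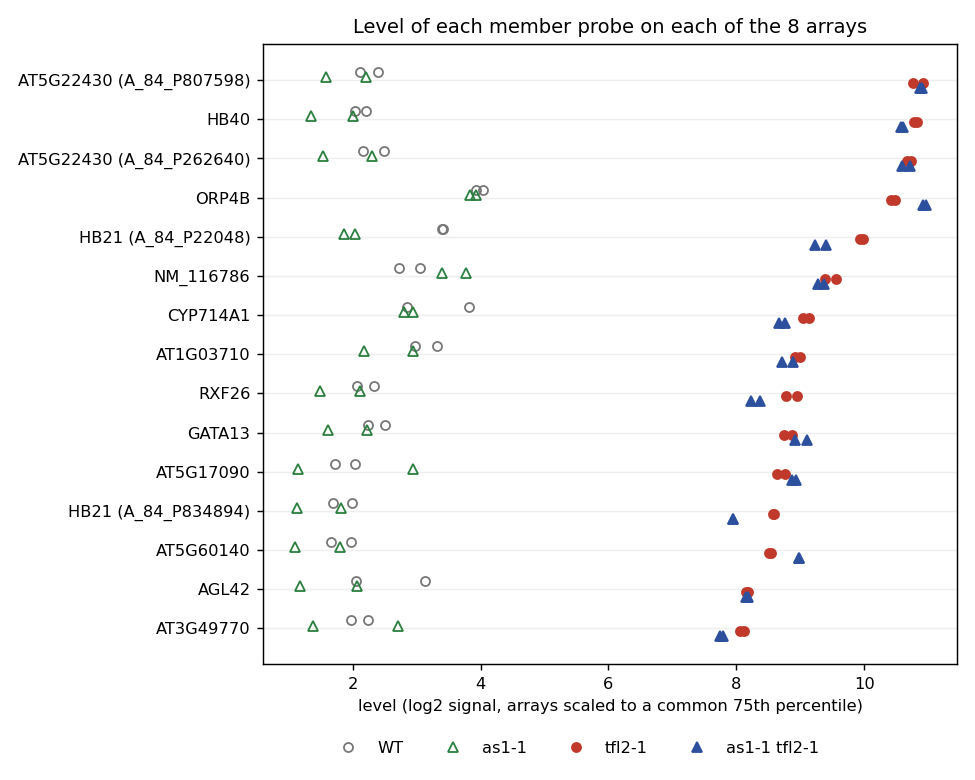
Level of each of the 15 member probes (rows) on each of the 8 arrays (x axis, log2 signal, arrays scaled to a common 75th percentile). Open symbols are WT (circles) and as1-1 (triangles), filled symbols tfl2-1 (circles) and the double mutant (triangles); WT and as1-1 points all lie at or below 4.04, and tfl2-1 and double mutant points at or above 7.75.

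By role, transcription factor genes form the largest group whose function is known: the homeobox genes HB21 (AT2G18550) and HB40 (AT4G36740), the GATA zinc finger gene GATA13 (AT2G28340) and the MADS-box gene AGL42 (AT5G62165, also called FOREVER YOUNG FLOWER). Genes of enzymes and lipid-binding proteins are CYP714A1 (AT5G24910), a cytochrome P450 that inactivates gibberellin, RXF26 (AT1G58430), a lipase-like GDSL protein gene, and ORP4B (AT4G25850), of the oxysterol-binding protein family. AT1G03710, AT3G49770, AT5G17090, AT5G22430 and AT5G60140 have no gene name in the RefSeq table, and the transcript NM_116786 (probe A_84_P10951) matched no gene there. The 12 matched genes lie on all of the nuclear chromosomes, with 2 on chromosome 1, 2 on chromosome 2, 1 on chromosome 3, 2 on chromosome 4 and 5 on chromosome 5. No member lay within 5 protein-coding genes of another, and the closest were 212 genes apart.

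The double mutant asks whether these genes stay on when AS1 is lost as well. Of the 15 probes, 13 kept a mean of 8 or more in the double mutant in the authors' deposited table, and the other 2, of HB21 and AT3G49770, fell just under it. The fold of double mutant over tfl2-1 ran from 0.643 to 1.41 across the 15 probes, with a median log2 difference of -0.15, against 0.00 over the 30467 probes tested. In the fit of all 8 arrays (limma, Benjamini-Hochberg over those probes) 1 member probe was higher in the double mutant and 1 was lower. Over all probes 11.6% were called higher and 16.1% lower, 27.8% in all, against 13.3% of the members (2 of 15). Both genotypes sat on the same slide. The tfl2-1 side was chosen for being high, which by itself favours a lower value in the double mutant.

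The 8-array fit takes its spread from all genotypes, also those in which the members gave no signal. The median gap between the 2 arrays of a genotype over the 15 probes was 0.071 in tfl2-1 and 0.065 in the double mutant, but 0.298 in WT and 0.650 in as1-1, where the values are background. In the fit of the 4 tfl2-1 and double mutant arrays alone, 2 member probes were called higher and 5 lower, against 9.59% and 13.5% of all probes. That is 46.7% of the members (7 of 15) against 23.1% of all probes, so whether the members were called less or more often than the background turned with the choice of fit. With all 8 arrays it turned as well when the values were changed: 6 of 15 members (40%) were called with quantile normalization and with the authors' deposited table, each against 28.2% of all probes, and 7 of 15 (46.7%) with normexp background correction, against 27.5%. The differences themselves were the same in both fits, and the calls gained were those of AT5G60140, RXF26, CYP714A1, AT3G49770 and the other HB21 probe.

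**Figure D3:**
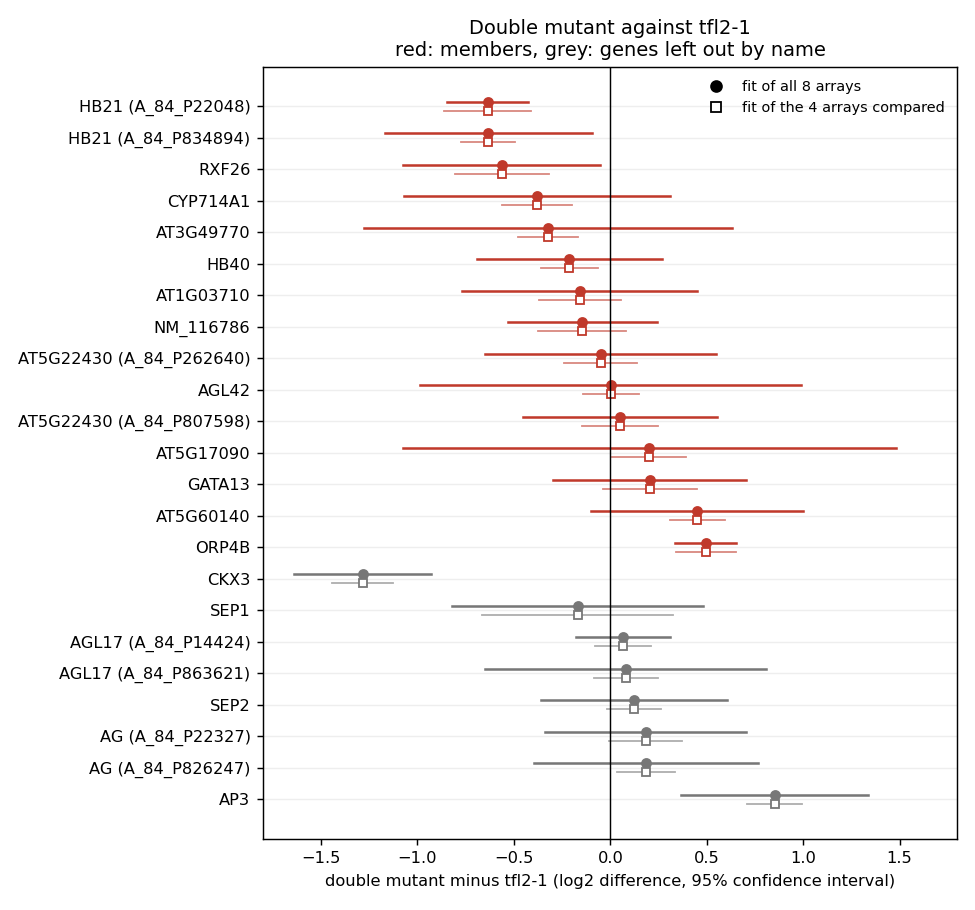
Double mutant minus tfl2-1 (x axis, log2 difference with its 95% confidence interval) for the 15 member probes (red) and the 8 probes left out by name (grey). Filled circles are the fit of all 8 arrays and open squares the fit of the 4 arrays compared; member differences run from -0.64 for HB21 to 0.50 for ORP4B, inside the range from CKX3 (-1.28) to AP3 (0.85).

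HB21 and HB40 encode related class I homeodomain-leucine zipper proteins, which with HB53 act downstream of BRANCHED1 in axillary buds and promote abscisic acid accumulation there. HB21 by probe A_84_P22048 was at 3.42 and 3.39 in WT and at 2.04 and 1.86 in as1-1, none above background. It was at 9.98 and 9.93 in tfl2-1 and at 9.22 and 9.41 in the double mutant, with no overlap between these groups. It was 1.55-fold lower in the double mutant (log2 difference -0.64 ± 0.086, SE, n = 2 per genotype, limma adjusted p = 0.0038). The other HB21 probe, A_84_P834894, was at 8.57 and 8.60 in tfl2-1 and 7.95 on both double mutant arrays. Its difference was of the same size (-0.63, 95% confidence interval -1.17 to -0.10, limma adjusted p = 0.0808), and it was called in the 4-array fit (limma adjusted p = 0.00622). HB40 was at 10.78 and 10.82 in tfl2-1 and at 10.60 and 10.58 in the double mutant, and at 1.35 to 2.21 on the other 4 arrays. Its difference was -0.21 (95% confidence interval -0.69 to 0.27, limma adjusted p = 0.467), and in the 4-array fit it had an adjusted p of 0.0579 by limma. With all 8 arrays HB40 was called lower when the values were changed. The limma adjusted p was 0.0326 with quantile normalization, 0.0325 with the authors' deposited table and 0.0174 with normexp background correction.

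HB53 (AT5G66700), which was not a member, was measurable in every genotype. It was at 5.29 and 5.45 in WT, 5.22 and 5.41 in as1-1, 7.63 and 7.61 in tfl2-1, and 7.35 on both double mutant arrays. It was 4.75-fold higher in tfl2-1 than in WT (log2 difference 2.25 ± 0.082, SE, n = 2 per genotype, limma adjusted p = 1.15e-05). Between the double mutant and tfl2-1 it differed by -0.27 (limma adjusted p = 0.0542). Of the 31 other tested genes whose RefSeq symbol is HB and a number, a set that holds several classes of homeobox gene, 7 rose and 13 fell in tfl2-1 against WT, with a median of -0.04. Over all genes, taking 1 probe each, 25.6% rose and 27.9% fell. In the double mutant against tfl2-1, 16 of the 31 were higher and 4 lower (median 0.21), against 12.5% and 17.1% of all genes.

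AGL42 belongs to the SOC1 group of MADS-box genes and is known for delaying floral senescence and abscission. By the member probe it was at 3.13 and 2.05 in WT and 2.07 and 1.17 in as1-1, all below background. It was at 8.19 and 8.15 in tfl2-1 and at 8.18 and 8.15 in the double mutant, so the groups overlapped. The difference was 0.00 with a 95% confidence interval of -0.99 to 0.99 in the 8-array fit, and of -0.14 to 0.15 in the 4-array fit. Its other probe was just outside the rule, with a WT mean of 4.27 in the authors' deposited table, and read 9.45 and 9.36 in tfl2-1 and 9.55 and 9.42 in the double mutant. AGL71 (AT5G51870), of the same group, was below background on the WT and as1-1 arrays. It was at 6.38 and 6.46 in tfl2-1 and 6.70 and 6.75 in the double mutant, at least 4.82-fold higher in tfl2-1 than in WT.

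GATA13 encodes a GATA-type zinc finger transcription factor. It was at 2.23 and 2.50 in WT and 2.23 and 1.62 in as1-1, below background, at 8.74 and 8.87 in tfl2-1, and at 8.92 and 9.10 in the double mutant. The double mutant arrays were both above those of tfl2-1, and the difference of 0.20 (95% confidence interval -0.29 to 0.70, limma adjusted p = 0.5) was not called. Of the 18 other tested GATA genes, 5 rose and 7 fell in tfl2-1 against WT, and none of the 18 rose 4-fold or more.

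ORP4B was the 1 member called higher in the double mutant by the 8-array fit. It was at 3.92 and 4.04 in WT and 3.84 and 3.94 in as1-1, at 10.48 and 10.42 in tfl2-1, and at 10.96 and 10.93 in the double mutant. The double mutant was 1.41-fold higher than tfl2-1 (log2 difference 0.50 ± 0.065, SE, n = 2 per genotype, limma adjusted p = 0.00336), with no overlap. The genes on either side of it in RefSeq order were measured too. ORP4A (AT4G25860), a gene of the same family and its next neighbour, was below background in WT and as1-1 and at 6.69 and 6.96 in tfl2-1, at least 6.37-fold higher than in WT. It was at 7.37 and 7.40 in the double mutant, 0.56 above tfl2-1 (limma adjusted p = 0.142). AT4G25845, on the other side, was above background on 1 of the WT arrays, at 4.61, and not on the other, at 3.85. It was at 6.05 and 5.96 in tfl2-1, above background on both, and at 6.47 and 6.45 in the double mutant. Of the 9 other tested ORP genes, ORP4A included, 3 rose and 1 fell in tfl2-1 against WT. ORP4C (AT5G57240) was at 8.40 and 8.30 in WT and 8.63 and 8.59 in tfl2-1. ORP4A and ORP4B are neighbouring copies of a family, and whether a probe of one also picks up the other was not tested.

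CYP714A1 encodes an enzyme of gibberellin inactivation, which lowers the amount of active hormone. It was at 3.81 and 2.85 in WT and 2.81 and 2.94 in as1-1, below background, at 9.05 and 9.14 in tfl2-1, and at 8.76 and 8.67 in the double mutant. Both double mutant arrays were below both tfl2-1 arrays. The difference of -0.38 was not called in the 8-array fit (limma adjusted p = 0.364) and was called in the 4-array fit (limma adjusted p = 0.0274). CYP714A2 (AT5G24900), its next neighbour in RefSeq order and the 1 other gene of the subfamily in the table, was at 2.35 and 2.90 in WT and 2.31 and 1.69 in as1-1, below background. It was at 6.62 and 6.48 in tfl2-1 and 6.31 and 6.40 in the double mutant, at least 5.28-fold higher in tfl2-1 than in WT. A probe of one of this pair may also pick up the other, which was not tested.

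**Figure D4:**
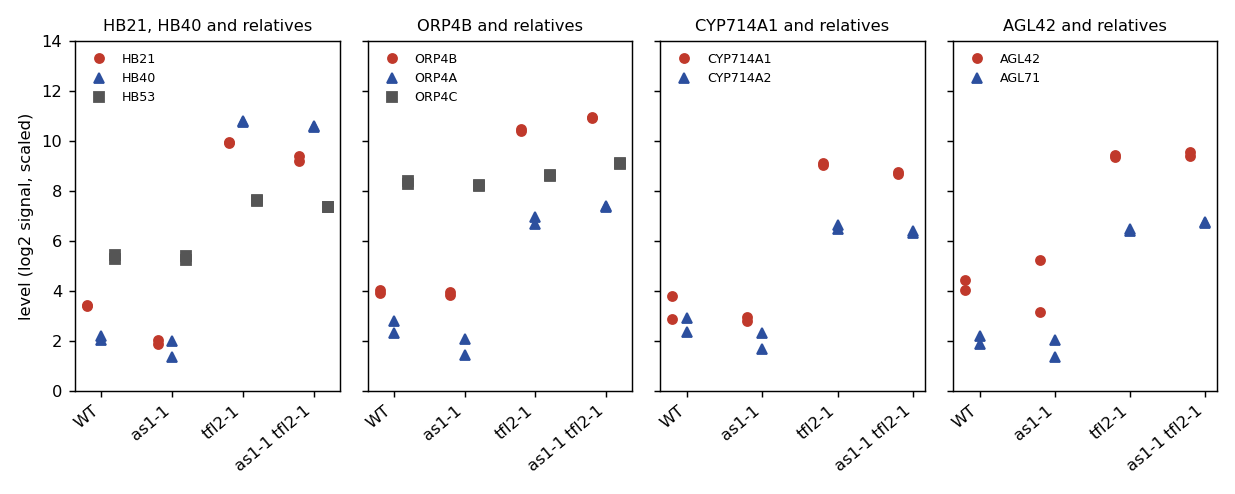
Level (y axis, log2 signal, scaled) on both arrays of each genotype (x axis) for HB21 and HB40 with HB53, ORP4B with ORP4A and ORP4C, CYP714A1 with CYP714A2, and AGL42 with AGL71, 1 probe per gene, that with the highest mean, which for AGL42 is its other probe, just outside the rule. Levels of different probes are not comparable with each other; within each gene, HB53, ORP4A, CYP714A2 and AGL71 are higher on both tfl2-1 arrays than on the WT and as1-1 arrays, as the members are.

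RXF26, whose GDSL family holds esterases and lipases, was at 2.07 and 2.33 in WT and 2.12 and 1.49 in as1-1, below background. It was at 8.94 and 8.77 in tfl2-1 and at 8.23 and 8.36 in the double mutant, with no overlap. The difference was -0.56 (95% confidence interval -1.07 to -0.05), with a limma adjusted p of 0.0967 in the 8-array fit and 0.0218 in the 4-array fit.

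AT5G22430 has no name in the RefSeq table, and 2 member probes read it. By A_84_P807598 it was at 10.77 and 10.92 in tfl2-1 and 10.87 and 10.91 in the double mutant, and by A_84_P262640 at 10.72 and 10.67 and at 10.71 and 10.58. The groups overlapped by both probes. WT and as1-1 arrays were at 1.54 to 2.49 by either probe. The differences were 0.05 (95% confidence interval -0.46 to 0.55) and -0.05 (-0.65 to 0.55). AT5G22460, 3 genes away, was 3.51-fold higher in tfl2-1 than in WT (limma adjusted p = 9.35e-06).

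AT5G60140 stood with ORP4B at the upper end. Its member probe read 8.51 and 8.55 in tfl2-1 and 8.98 on both double mutant arrays, a difference of 0.45 that was not called in the 8-array fit (limma adjusted p = 0.188) and was called in the 4-array fit (limma adjusted p = 0.0118). Its other probe read 5.71 and 5.67 in tfl2-1 and 6.41 and 6.31 in the double mutant, a difference of 0.67 (limma adjusted p = 0.0533). Both double mutant arrays exceeded both tfl2-1 arrays by either probe.

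AT3G49770 was at 8.13 and 8.05 in tfl2-1 and 7.75 and 7.78 in the double mutant, a difference of -0.32 that was called in the 4-array fit (limma adjusted p = 0.0282) and not in the 8-array fit (limma adjusted p = 0.579). AT5G17090 was at 8.76 and 8.64 in tfl2-1 and 8.94 and 8.87 in the double mutant. AT1G03710 had a mean of 8.96 in tfl2-1 and was at 8.72 and 8.88 in the double mutant. For both of these the double mutant lay apart from tfl2-1, in opposite directions, by differences of 0.20 and -0.16 that neither fit called. NM_116786 was at 9.38 and 9.55 in tfl2-1 and 9.37 and 9.27 in the double mutant, a difference of -0.15 (95% confidence interval -0.53 to 0.24) that neither fit called. The other probes of AT5G17090 and of NM_116786 were also below background on all WT and as1-1 arrays and above it on all others. They read 7.67 and 7.64, and 7.72 and 7.73, in tfl2-1. In the double mutant they read 7.85 and 7.92, and 7.28 and 7.51. Their differences were 0.23 (limma adjusted p = 0.446) and -0.33 (limma adjusted p = 0.435), not called in the 8-array fit.

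Counted over probes, double mutant and tfl2-1 arrays did not overlap for 12 of the 15, with 4 higher in the double mutant and 8 lower. With 2 arrays against 2, 33.5% of all probes were higher without overlap and 34.8% lower. Of the 8 probes left out by name, 1 was called higher and 1 lower in each fit: AP3 (log2 difference 0.85, limma adjusted p = 0.0248) and CKX3 (log2 difference -1.28, limma adjusted p = 0.00214). Both changed more in size than any member. The probes of SEP1, SEP2, AG and AGL17 differed by -0.17 to 0.19, and neither fit called them.

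The genes around the members in RefSeq order were examined as well. Of the 120 protein-coding genes within 5 positions of a member, 82 were tested. In tfl2-1 against WT 29 of them rose and 21 fell (median 0.02), where 25.6% of all genes rose and 27.9% fell. ORP4A and CYP714A2, both below background in WT, were the 2 that rose at least 4-fold, as did 1.39% of all genes. Both are next to the member of their own family. Of the 16 genes tested that lie directly beside a member, 7 rose and 2 fell. The genes beside HB40, GBF1 and AT4G36750, differed by 0.03 and -0.14 between tfl2-1 and WT and were not called.

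**Figure D5:**
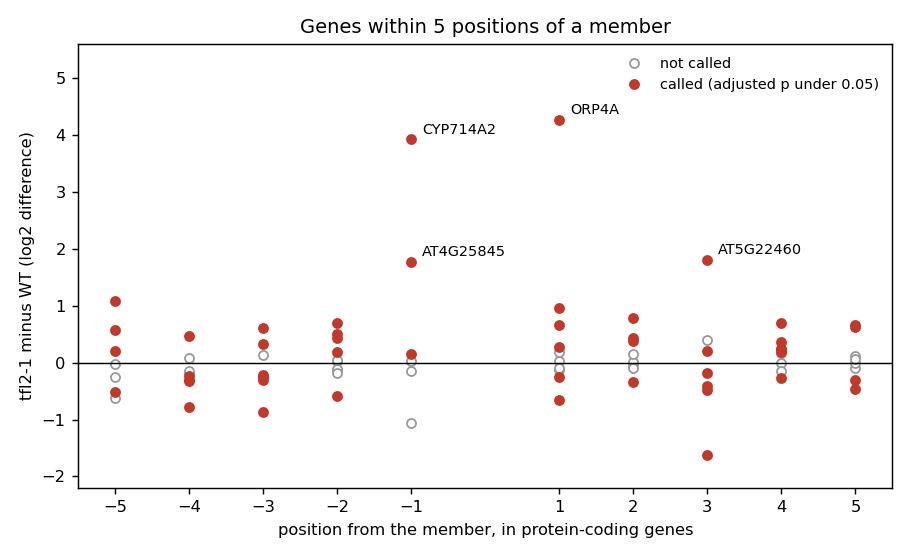
Difference of tfl2-1 minus WT (y axis, log2) of the 82 tested genes within 5 protein-coding genes of a member (x axis, position from the member in genes). Red points were called at an adjusted p under 0.05 and open points were not; ORP4A and CYP714A2 stand at 4.27 and 3.92, which are fitted values against a WT level below background, and the rest lie between -1.63 and 1.81.

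Levels in whole seedlings cannot tell more cells expressing a gene from more RNA per cell. As background for the marker counts, 25.6% of all genes rose and 27.9% fell in tfl2-1 against WT, a comparison across slides. In the double mutant against tfl2-1, 12.5% of all genes were higher and 17.1% lower. Among floral meristem markers, LFY was at least 4.39-fold and UFO at least 2.49-fold higher in tfl2-1 than in WT. LFY was at 5.51 and 7.07 in tfl2-1. Between the double mutant and tfl2-1 LFY differed by -0.18 and was not called (limma adjusted p = 0.881). UFO was 2.18-fold higher in the double mutant than in tfl2-1 (limma adjusted p = 0.0304), where the highest fold of a member was 1.41. RBE was not above background on both arrays of any genotype. The summed level of the list was 2.95 to 3.60 in WT, 3.79 to 4.32 in as1-1, 6.40 to 7.52 in tfl2-1 and 7.34 to 7.40 in the double mutant. LFY and UFO were below background on both WT arrays, so the WT sum is one of background values. In as1-1 only UFO was above it, on 1 array. Of 9 carpel and ovule markers 7 were tested, of which 5 rose and 1 fell, and the summed level was 11.08 to 11.09 in WT, 10.92 to 10.93 in as1-1, 11.39 to 11.45 in tfl2-1 and 11.48 to 11.51 in the double mutant. Only 3 of the 7 were above background on both WT arrays. Most of this sum came from BEL1, which was on in every genotype, at a mean of 10.84 in WT and 11.01 in tfl2-1. Of 11 tapetum and anther markers 10, and of 5 pollen markers 4, were not above background on both arrays of any genotype. The 2 that were, LAP6 and TUA1, were above it in every genotype, at means of 8.98 and 9.27 already in WT. They were higher in tfl2-1 (LAP6 1.48-fold, limma adjusted p = 0.000644, and TUA1 1.72-fold, limma adjusted p = 0.000489). With the rest of their lists undetected, these 2 do not show that anther or pollen cells were present. Of 15 seed maturation markers 6 were tested, of which 3 rose and 1 fell in tfl2-1. On both WT arrays only 1 of the 6 was above background, so the summed level holds background values. It was 6.76 to 7.25 in WT, 5.24 to 6.06 in as1-1, 7.97 to 8.07 in tfl2-1 and 6.52 to 6.91 in the double mutant. SESA3, the 1 above background on both WT arrays (mean 5.92), was below it in every other genotype. In the double mutant against tfl2-1, FUS3, ABI3, CRA1 and SESA3 were not called. CRA1 was above background on both tfl2-1 arrays and on neither double mutant array (limma adjusted p = 0.133). The other 2, GEA6 and PAP85, were called lower in the double mutant than in tfl2-1. GEA6, a late embryogenesis abundant protein gene, was at 6.46 and 6.55 in tfl2-1 and not above background in the double mutant. PAP85, of the vicilin seed storage family, was at 5.80 and 5.70 in tfl2-1 and 4.76 on both double mutant arrays (limma adjusted p = 0.0174). Photosynthesis markers of the leaf fell, 7 of 8 in tfl2-1 (median -0.44) and 5 of 8 again in the double mutant against tfl2-1 (median -0.34), and their summed level was 20.81 to 20.92 in WT, 20.75 to 20.76 in as1-1, 20.48 to 20.54 in tfl2-1 and 20.22 to 20.32 in the double mutant. Of 8 root markers 5 were tested, of which none rose and 2 fell in tfl2-1. Their summed level was 14.13 to 14.18 in WT, 14.15 to 14.16 in as1-1, 13.88 to 13.89 in tfl2-1 and 13.53 to 13.60 in the double mutant. Most of this sum came from PYK10, at a mean of 13.91 in WT, 13.55 in tfl2-1 and 13.02 in the double mutant. In the double mutant against tfl2-1, 2 of the 5 were called higher (SCR and SHR) and 2 lower (WOX5 and PYK10). All 8 leaf markers but only 4 of the 8 root markers were above background on both WT arrays. Another 3 root markers were not so in any genotype, so only part of the root list bears out the label of whole seedling. The part of these cell types in the members' levels was not tested.

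Values on both sides of the thresholds were as follows. Just inside the WT threshold was ORP4B, with a WT mean of 3.99 in the authors' deposited table, then HB21 (3.42) and CYP714A1 (3.36). Just outside were the other probe of AGL42 (4.27), an unnamed probe (4.68) and SCPL43 (4.76). At the tfl2-1 threshold AT3G49770 (8.07), AGL42 (8.14) and AT5G60140 (8.51) were just inside, and UMAMIT14 (7.99), TLP5 (7.97) and AT4G16270 (7.93) just outside, again in the authors' deposited table. No probe that met the WT and tfl2-1 conditions was kept out by as1-1 alone; the highest as1-1 mean among members was 3.93, of ORP4B.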

How the data were processed

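RNA of 8 samples was labelled with Cy3 and hybridised to one-colour Agilent arrays. Per the file headers, the deposited processed signal is an intensity after background subtraction and detrending; the submitters' processing notes name Agilent Feature Extraction 10.7. The authors deposited a log2 value per probe as well. It follows the log2 signal of its array (r of 0.999 to 1.000 over probes), has column medians of 7.6809 to 7.6817 and is not centred per probe; how the arrays were brought together is not given in the sources used here. It chose the members and served as an alternative. Deposited flags (a 0 or 1 score per spot) gave the background calls.

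Of 43803 non-control spots, the 67 outliers were left out, none of a member, and spots of a probe averaged. Log2 signals were scaled to each array's 75th percentile. Probes well above background on both arrays of at least 1 genotype were tested (30467, 69.9%). Accessions matched RefSeq (TAIR10.1) for 34285 probes; the files name an older build, so no coordinates are given. The 8 arrays entered 1 limma 3.58.1 fit (R 4.3.3) with a mean per genotype and 4 residual degrees of freedom, two-sided, with a threshold of 0.05. For neighbours, families and markers the probe with the highest mean stood for a gene. On simulated data of the double mutant against tfl2-1 (30467 probes, 100 changed at each size), 84% of log2 changes of 1 and 47% of 0.5 were recovered, with 6.43% of calls false. In the real comparison a far larger share of probes, 27.8%, was called. The rates need not hold for the member probes, whose spread in the 8-array fit includes background values. The number of arrays limits the precision.

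Members, lists and the rule for genes named (every member, with values) were chosen with earlier results of these data known, and the families after the members were seen. Planned promoter motif counts were not run. The replicate numbers did not pair the samples: same-numbered arrays correlated by -0.06 to 0.05 in their deviations.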

Additional observations from a re-analysis of the deposited data

How the results depend on the processing

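Signal over background limits these results: WT and as1-1 have no measured level for the members, so folds against them are bounds. The rule gave the same 15 probes on quantile-normalized processed signals, 14 with a WT mean of 3.5 or less and 7 with a tfl2-1 mean of 9 or more. Against tfl2-1, 1 member probe was higher and 1 lower in the double mutant; these were 2 and 4 with quantile normalization and with the authors' table, and 2 and 5 with normexp and in the fit of 4 arrays. The share of members called was thus 13.3% against 27.8% of all probes in the first case, 40% against 28.2% with quantile normalization and the authors' table, and 46.7% against 27.5% with normexp and 23.1% in the fit of 4 arrays, while without the filter on dim probes it was 13.3% against 12.2%. The counts were 1 higher and 1 lower without the filter on dim probes, with 1 probe per gene (12 member probes tested) and with the replicate block. With 1 probe per gene 16.7% of the members were called against 31.5% of all, and with the replicate block 13.3% against 23.6%. Leaving out 1 array gave 1 to 2 higher and 1 to 3 lower: 2 and 3 without either as1-1 array, 1 and 2 without either WT array. With 1 as1-1 array left out the members were called more often than all probes, and with 1 array of any other genotype left out less often. So the comparison with the background turned here as well. Each of these fits holds only 1 array of the genotype concerned. The median difference lay between -0.196 and -0.0769 when 1 array was left out. All probes called numbered 8463, 7183 with the replicate block, 5316 without the filter on dim probes and 4969 to 8447 when 1 array was left out, with 4984, 5148, 4969 and 5095 without each tfl2-1 and double mutant array. The calls of ORP4B and of HB21 by A_84_P22048 held in all 15 alternatives. Of 222 values of single probes under alternatives, 26 gained a call and 0 lost one. The sign turned in 6, none of them called: AT5G22430 by A_84_P262640 (-0.0507) was 0.107 with normexp and -0.115 to 0.0131 when 1 array was left out, AT5G22430 by A_84_P807598 (0.0491) was -0.0255 to 0.124 when 1 array was left out, and AGL42 (0.00182) was -0.0248 with normexp and -0.0166 to 0.0202 when 1 array was left out. The replicate block changed no call of a member.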
